A study of Mus musculus with 12 samples.

Results

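The kidney's response to diabetes was set against the D6 genotype with 1 contrast per gene: the diabetes difference in D6 knockouts minus the diabetes difference in mice with intact D6. All 12 arrays of the series entered this contrast, and it could be tested for 16480 of the 19936 genes that had a probe set with a single gene symbol. The whole kidneys came from FVB-strain mice 6 months old, 3 arrays per group. FVB mice were non-diabetic with wild-type D6, and D6 mice were non-diabetic and D6-/-. OVE mice were diabetic OVE mice, from the OVE26 line, with wild-type D6, and OVE-D6 mice were diabetic and homozygous for the D6 deletion. The deletion came from C57BL/6 mice and was bred to FVB for at least 10 generations, so sequence beside the deleted gene can still be of C57BL/6 origin in both knockout groups. OVE26 is a transgenic line in which calmodulin is overexpressed in the pancreatic beta cell from the insulin promoter, so that diabetes follows from beta cell damage. In the labels, RNA came from each mouse separately, so the replicates were different animals, with no batch given.

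D6, encoded by Ackr2, is an atypical chemokine receptor. It binds inflammatory CC chemokines, takes them into the cell and degrades them, and it does not signal through G proteins to drive migration. CC chemokines such as Ccl2 draw monocytes out of the blood through the receptor Ccr2, and in the diabetic kidney the macrophages that arise from them lie close to injured tubules and expanding matrix. A gene whose diabetes difference is smaller, or turned, in the knockouts has a negative interaction if it is higher in diabetes, and a positive one if it is lower in diabetes.

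Estimates below are on the log2 scale, so that -1 means a diabetes ratio 2-fold smaller in the knockouts. A value after ± is the standard error from the limma fit, and an adjusted p is Benjamini-Hochberg over all tested genes. Many estimates are printed without an adjusted p, and some without a standard error. With all 12 arrays no gene passed the adjusted threshold, so an all-array estimate printed without an adjusted p did not pass it either. Kidney genes marked the tissue on every array: the proximal tubule phosphate transporter Slc34a1 lay at 13.5 to 13.9 and uromodulin, Umod, at 12.8 to 13.3. Xist, the transcript of the inactive X chromosome, lay at 12.5 to 12.9 on all arrays. OVE had the widest spread, with a median SD over genes of 0.123, and the other groups had 0.0959 to 0.105. OVE replicate 3 was the OVE array nearest to the FVB mean in 43.5% of tested genes, against 28.7% for replicate 1 and 27.8% for replicate 2. In array weighting OVE replicate 3 had the lowest weight, 0.556. Of the 162 genes named by rule, 58 passed the adjusted threshold without it. Over all tested genes, 2.14% passed without it with a negative estimate and 0.146% with a positive one. Most of the 162 were named for the smallest interaction p overall or in a list, so a larger share was built in. Values without OVE replicate 3 stand beside many, but not all, of the genes and lists that turn on that array. The array was singled out from these same values, and it was the OVE array nearest the FVB mean in all 15 negative genes named below. Leaving it out therefore widens OVE minus FVB in such genes. Values without it show how far a result depends on that array and are not further support. Background was set at 5.93, a level that 95% of 1027 olfactory receptor genes do not exceed, and no fold is given against a group mean under it. Ackr2 itself ranged from 6.74 to 7.04 over the 12 arrays, with overlapping groups and an interaction of 0.13 ± 0.12 (limma, adjusted p = 0.777). Where its probe set lies relative to the deleted part is not given in the sources used here, so its level did not check the genotype.

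With all 12 arrays, no gene passed an adjusted p of 0.05 in limma in either direction (0% of tested genes), and the smallest adjusted p was 0.173. An unadjusted p under 0.05 was reached by 1647 genes, against 824 that 5% of the tested genes would make. Of these, 1036 had a negative estimate (6.29% of tested genes) and 611 a positive one (3.71%). The large estimates lay on the negative side, where 155 genes were below -1 and 14 genes were above 1, although the median over all genes was 0.006 and 48.4% of estimates were negative. Of the 64 genes with an adjusted p up to 0.2, 57 were negative. Leaving out OVE replicate 3 left 353 genes past the adjusted threshold with a negative estimate (2.14% of tested genes) and 24 with a positive one (0.146%). Leaving out any other single array left 0 genes past it, except D6 replicate 1, without which 1 gene passed, the ribosomal protein gene Rps14 (-1.26, adjusted p = 0.0386, against -0.93 ± 0.30 with all arrays).

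**Figure D1:**
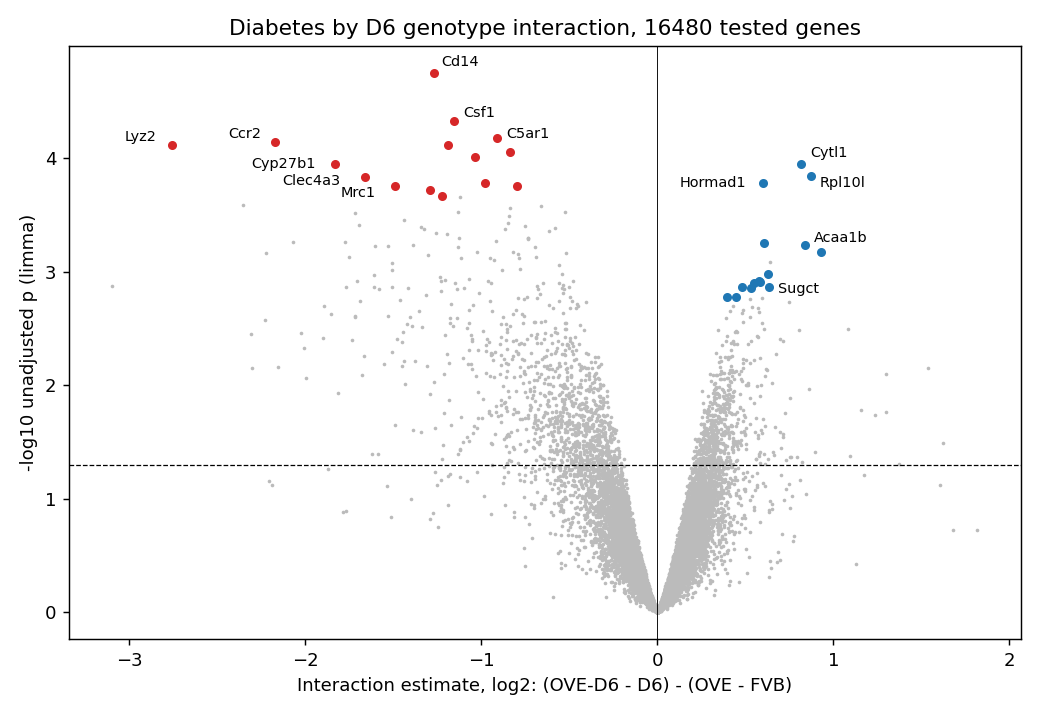
Interaction estimate of each of the 16480 tested genes (horizontal, log2) against -log10 of its unadjusted limma p (vertical). Grey points are all genes, red and blue points the 15 negative and 15 positive genes with the smallest p, and the dashed line marks an unadjusted p of 0.05. The left side reaches beyond -3 and the right side does not reach 2, and no gene passed the adjusted threshold.

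The 15 genes with the smallest p on the negative side were Cd14, Csf1, C5ar1, Ccr2, Csf2rb, Lyz2, Tgfbi, Fcgr3, Cyp27b1, Clec4a3, Elf4, Efhd2, Mrc1, Lpcat2 and Selplg. Their adjusted p lay between 0.173 and 0.181 with all arrays, and each of the 15 passed without OVE replicate 3. Of the 15, 4 belong to the macrophage and monocyte list (Cd14, Lyz2, Fcgr3 and Mrc1), which holds 25 of the 16480 tested genes. In all 15, every OVE array was above every FVB array (13.6% of all tested genes) and every OVE-D6 array was below every OVE array (8.24%). In 11 of the 15, every D6 array was also above every FVB array (5.59%). Since the genes were chosen on the interaction, these counts describe its shape. OVE was the group that stood farthest from the other 3 in 15 of 15, and in 41.7% of all tested genes.

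Cd14, the co-receptor through which Toll-like receptor 4 senses bacterial lipopolysaccharide, had the smallest p. It was at 6.98, 6.90 and 6.61 in FVB, at 6.99, 6.79 and 6.88 in D6, at 8.06, 8.33 and 7.88 in OVE, and at 6.78, 6.75 and 7.09 in OVE-D6. Only OVE stood out, and the other 3 groups overlapped. The diabetes ratio was 2.39-fold in mice with intact D6 and 0.992-fold in knockouts, an interaction of -1.27 ± 0.19 (adjusted p = 0.173).

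Lyz2, the lysozyme of macrophages and other myeloid cells, had an interaction of -2.76 ± 0.48 (adjusted p = 0.173), the largest in size of the 15. Its values were 9.08, 8.75 and 8.47 in FVB, 9.29, 9.86 and 9.63 in D6, 11.97, 12.15 and 10.53 in OVE, and 9.46, 9.51 and 9.89 in OVE-D6. All D6 arrays were above all FVB arrays, and OVE-D6 lay within 0.03 of D6 on average, so the estimate joined a knockout difference of 0.82 ± 0.34 without diabetes to one of -1.93 ± 0.34 with it. OVE replicate 3 was more than 1 log2 unit under the other OVE arrays. Without it the estimate was -3.27 (adjusted p = 0.000132).

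Ccr2, the receptor for Ccl2 on inflammatory monocytes, was at 6.29, 5.57 and 5.65 in FVB and 6.01, 5.90 and 5.57 in D6. It was at 7.59, 7.91 and 6.69 in OVE and at 5.11, 5.28 and 5.26 in OVE-D6. The OVE arrays were the highest. The means of FVB, D6 and OVE-D6, at 5.84, 5.83 and 5.22, were under the background level, so the order of these groups and a fold cannot be read from them. The fitted interaction was -2.17 ± 0.37 (adjusted p = 0.173), and it was -2.53 (adjusted p = 0.000488) without OVE replicate 3. Ccr2 lies on chromosome 9, as Ackr2 does, and the part of C57BL/6 sequence in its values was not tested.

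Csf1, the growth factor that macrophages need to survive and divide, was at 7.54, 7.43 and 7.36 in FVB, 7.88, 7.71 and 7.58 in D6, 8.41, 8.71 and 8.22 in OVE, and 7.33, 7.74 and 7.64 in OVE-D6. The ligand was thus highest in OVE on every array, with an interaction of -1.15 ± 0.19 (adjusted p = 0.173), whereas its receptor Csf1r, a marker of most macrophages, had an estimate of -0.11. Csf2rb, the shared receptor chain for GM-CSF, interleukin 3 and interleukin 5, was at -1.19 ± 0.21, and C5ar1, the receptor for the complement fragment C5a, at -0.91 ± 0.15 (both adjusted p = 0.173). Mrc1, the mannose receptor of tissue macrophages, was at -1.49 ± 0.28. In Mrc1 the OVE values were 8.65, 8.95 and 7.85 and all arrays of the other groups lay between 7.08 and 7.48.

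**Figure D2:**
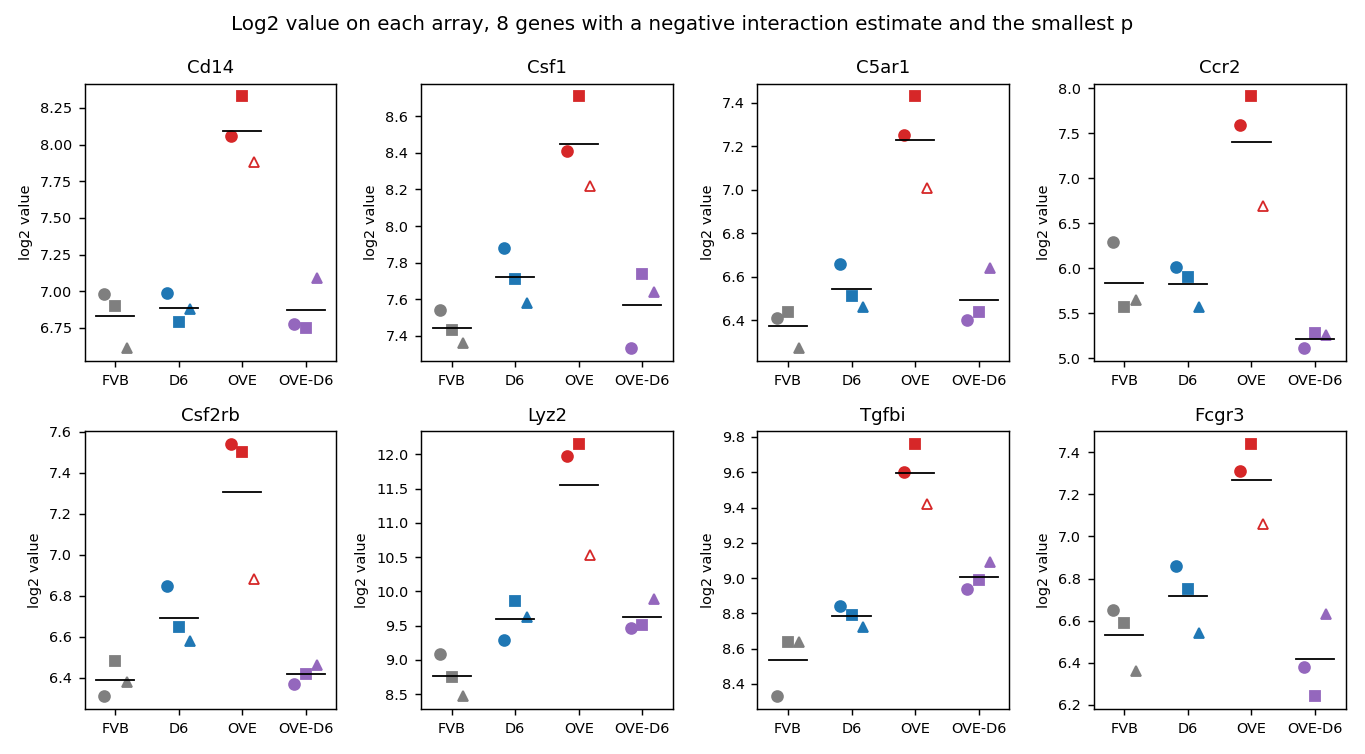
Log2 value on each array (circle, square and triangle for replicates 1, 2 and 3) of the 8 genes with a negative interaction estimate and the smallest p, with the group mean as a line. The OVE arrays lie above the arrays of the other 3 groups in each panel, and OVE replicate 3 (open triangle) is the lowest of its group in each.

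Others of the 15 lie outside the macrophage list. Cyp27b1, the kidney enzyme that makes active vitamin D, had an interaction of -1.83 ± 0.33 (adjusted p = 0.173). It was at 6.27, 6.31 and 6.39 in FVB, 7.51, 7.09 and 7.07 in D6, 8.84, 9.39 and 8.55 in OVE, and 8.32, 7.44 and 8.21 in OVE-D6. No FVB array came near any array of the other groups, and D6 was above FVB by 0.90 ± 0.23 without diabetes. Diabetes ratios were 6.08-fold with intact D6 and 1.71-fold in knockouts, so in this gene a diabetes difference was measured in both genotypes. Tgfbi, a matrix protein induced by TGF-beta, was at -0.84 ± 0.15, with 8.33, 8.64 and 8.64 in FVB and 9.60, 9.76 and 9.42 in OVE, against 8.84, 8.79 and 8.72 in D6 and 8.94, 8.99 and 9.09 in OVE-D6. Selplg, the leukocyte ligand that binds P-selectin on vessel walls, was at -1.22 ± 0.24, and the transcription factor gene Elf4 at -0.98 ± 0.18.

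Promoter sequence was looked at because the 15 negative genes shared 1 arrangement of groups, and the sequences shown are those with a match to the kappaB motif, the site of the inflammatory factor NF-kappaB. RefSeq windows of 300 bases around the start site (GRCm38.p6) were given for 12 of the 15 genes, as 15 windows. Both strands were searched, and 3 of these windows, those of Csf1 and of Fcgr3, held the motif, against 4.51% of all 32851 windows. Fcgr3 encodes an activating receptor for IgG on macrophages and was at -1.04 ± 0.18 (adjusted p = 0.173); its 2 overlapping windows held the same match. The 250 bases before the start site are printed from 5′ to 3′ on the gene's strand, with the match in capitals, beginning 154 bases before the start of Csf1 at chr3:107760470-107760719 and 152 bases before that of Fcgr3 at chr1:171059404-171059653, both on the minus strand.
Csf1: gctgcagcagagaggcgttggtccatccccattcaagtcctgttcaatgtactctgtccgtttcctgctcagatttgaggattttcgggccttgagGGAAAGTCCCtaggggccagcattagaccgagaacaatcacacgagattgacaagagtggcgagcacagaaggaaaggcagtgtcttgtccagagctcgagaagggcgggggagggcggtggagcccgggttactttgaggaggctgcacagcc
Fcgr3: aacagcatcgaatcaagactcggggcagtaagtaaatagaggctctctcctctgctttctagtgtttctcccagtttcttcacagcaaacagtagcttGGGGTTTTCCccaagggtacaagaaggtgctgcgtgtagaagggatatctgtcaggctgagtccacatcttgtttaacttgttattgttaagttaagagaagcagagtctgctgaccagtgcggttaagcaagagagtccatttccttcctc
A match describes the letters of the window and is not evidence of binding. AP-1 sites (TGANTCA) were in 1 of the 15 windows, E-boxes (CACGTG) in 1, CCAAT boxes (CCAAT) in 5, TATA boxes (TATAAA) in 1 and GAS elements, bound by STAT factors (TTCNNNGAA), in 0. Over all windows these shares were 7.81%, 7.15%, 37.4%, 13.6% and 8.3%.

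Macrophage and monocyte markers formed the gene list with the lowest median. All 25 tested members had a negative estimate, 23 at an unadjusted p under 0.05, with a median of -1.41 against 0.006 over all genes. None passed the adjusted threshold with all arrays, and 20 passed without OVE replicate 3. The median diabetes difference was 1.25 with intact D6 and -0.08 in knockouts. Adgre1, an adhesion receptor gene that marks mature macrophages, was at -2.07, the complement chain gene C1qc at -1.90, the lysosomal protease gene Ctss at -1.77 and the scavenger receptor gene Msr1 at -1.12. Averaged over the list and relative to the FVB mean, the D6 arrays were at 0.34, 0.44 and 0.17, and the OVE arrays at 1.44, 1.51 and 0.54. The OVE-D6 arrays were at 0.08, 0.20 and 0.27, close to D6 and below each OVE array. In whole kidney, fewer cells of a type and less RNA per cell cannot be told apart. Beside the counts of this and the following lists, 6.29% of all tested genes were negative and 3.71% positive at an unadjusted p under 0.05. Without OVE replicate 3, 2.14% of all tested genes passed with a negative estimate and 0.146% with a positive one. The members and lists were chosen with earlier results of these data known, so the counts describe the lists and are not independent support.

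**Figure D3:**
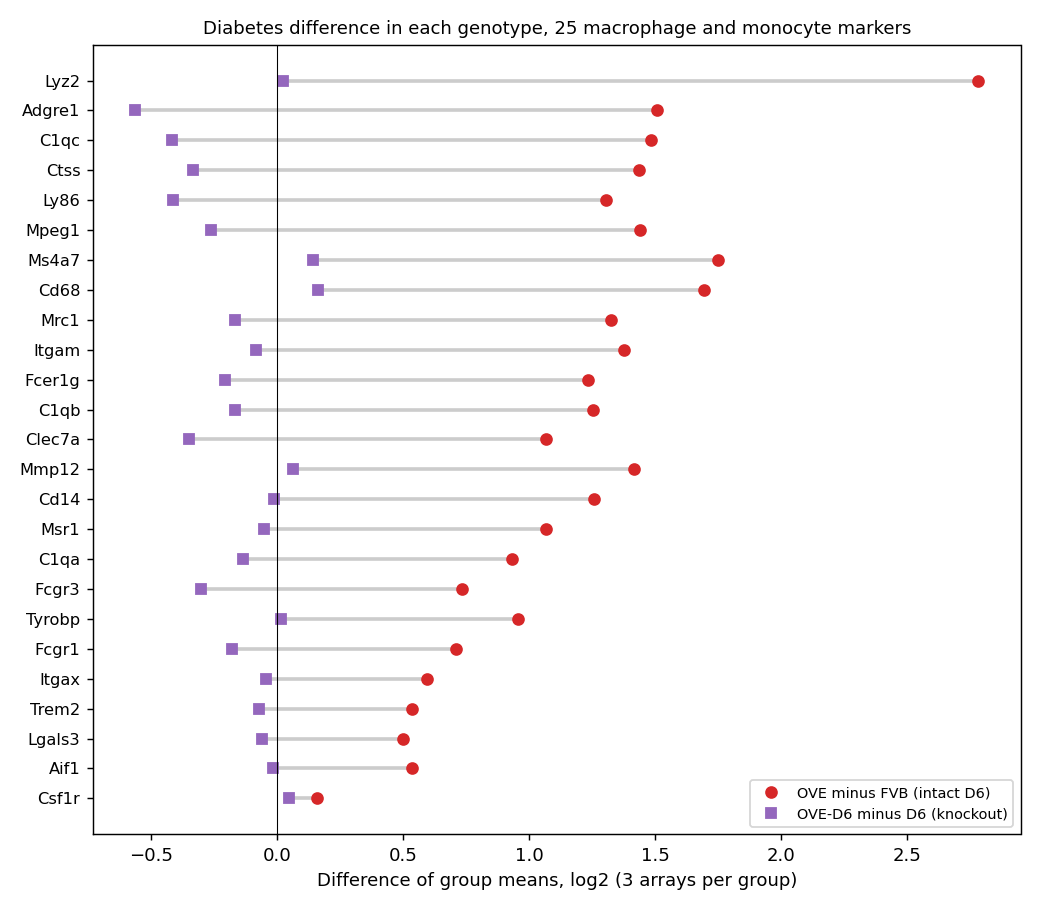
Difference of group means (log2, horizontal) between diabetic and non-diabetic arrays for each of the 25 tested macrophage and monocyte markers, with intact D6 (red circles) and in D6 knockouts (purple squares). The circles have a median of 1.25 and the squares of -0.08, and the square lies left of the circle for every marker.

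All 8 tested MHC class II genes had a negative estimate at an unadjusted p under 0.05, with a median of -1.24, and 4 passed without OVE replicate 3. Cd74, the invariant chain that guides class II molecules, was at 10.34, 9.61 and 9.48 in FVB, 11.36, 10.78 and 10.08 in D6, 12.01, 11.94 and 10.26 in OVE, and 10.04, 10.14 and 10.14 in OVE-D6. OVE replicate 3 here lay within the range of FVB, and D6 replicates 1 and 2 lay above it. The interaction was -2.23 ± 0.60 (adjusted p = 0.274), made of 0.93 ± 0.42 for D6 against FVB and -1.30 ± 0.42 for OVE-D6 against OVE. Without OVE replicate 3 it was -2.80 (adjusted p = 0.0036). H2-Aa was at -1.40 ± 0.37, H2-DMa at -1.45 ± 0.45 and H2-Ab1 at -1.82 ± 0.62, and all 3 passed without that array. Averaged over the list and relative to the FVB mean, OVE was at 1.42, 0.95 and 0.11, D6 at 0.76, 0.58 and 0.18, and OVE-D6 at 0.05, 0.21 and 0.14. OVE replicate 3 thus lay below every D6 array, unlike in the macrophage list.

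The ligands begin with the CC chemokines that D6 scavenges. Of 9 tested, 8 had a negative estimate and 6 were at an unadjusted p under 0.05, with a median of -0.72, and 2 passed without OVE replicate 3 (Ccl17 and Ccl22). Ccl2 was at 5.73, 6.02 and 5.90 in FVB, 6.36, 6.37 and 6.05 in D6, 7.16, 8.82 and 7.39 in OVE, and 6.50, 6.67 and 6.18 in OVE-D6. The 4 groups ranked FVB lowest and OVE highest, with D6 and OVE-D6 overlapping between them. The FVB mean, 5.88, was under the background level, so no fold is given for OVE. The fitted interaction was -1.72 ± 0.45 (adjusted p = 0.264), and -1.92 (adjusted p = 0.0628) without OVE replicate 3.

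The T cell attractant Ccl5 was at -1.21 ± 0.38, Ccl17, a ligand of Ccr4, at -1.06 ± 0.32, and Ccl7, a further ligand of Ccr2, at -0.90 ± 0.26. Ccl3 was at -0.72 ± 0.26 and Ccl22 at -0.68 ± 0.19. Ccl22 was at 6.06, 6.45 and 5.88 in OVE, overlapping both non-diabetic groups, and every OVE-D6 array and the FVB mean of 5.92 were under the background level, so its groups cannot be ordered there. Ccl11, Ccl4 and Ccl24 had estimates of -0.02 ± 0.19, -0.05 ± 0.13 and 0.08 ± 0.10, and Ccl24 lay under the background level. The direction of Ccl11 was not settled, since it turned with single arrays left out.

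Chemokines outside the scavenged list gave a median of -0.76 over 17 genes, with 11 negative and 0 positive at an unadjusted p under 0.05, and 5 past the threshold without OVE replicate 3. Ccl9, a ligand of Ccr1, was at 5.96, 6.16 and 5.92 in FVB, 6.23, 6.40 and 6.26 in D6, 7.70, 8.34 and 7.02 in OVE, and 6.21, 6.02 and 6.53 in OVE-D6, with an interaction of -1.72 ± 0.35 (adjusted p = 0.193). Every OVE array was above every other array, and without OVE replicate 3 the estimate was -2.05 (adjusted p = 0.00103). Ccl6 was at -1.58 ± 0.39, and Cxcl16, which acts both as a chemokine and as a scavenger receptor, at -0.76 ± 0.19. The interferon-inducible Cxcl11, with its FVB mean of 5.77 under the background level, was at -0.84 ± 0.23. Without OVE replicate 3, Ccl6 and Cxcl16 passed (adjusted p = 0.00135 and 0.00513) and Cxcl11 did not (0.118). Among 13 tested receptors the median was -0.06, and 2 were at an unadjusted p under 0.05: Ccr2 and the fractalkine receptor gene Cx3cr1, at -0.83 ± 0.17 (adjusted p = 0.193; 0.00918 without OVE replicate 3). Both receptors are carried by monocytes and macrophages. The receptor median was -0.16 without OVE-D6 replicate 1. Of the receptors, 5 had a mean under the background level.

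Complement genes had a median of -0.67, with 8 of 11 negative at an unadjusted p under 0.05 and 7 called without OVE replicate 3. C3ar1, the receptor for the fragment C3a, was at -1.69 ± 0.35 (adjusted p = 0.193) and at -2.03 (adjusted p = 0.00103) without OVE replicate 3, and properdin, Cfp, which stabilises the alternative pathway convertase, was at -0.97 ± 0.28. In C4b, FVB was the group that stood apart with all arrays, and OVE without OVE replicate 3, where the estimate was -1.23 (adjusted p = 0.0133). It was at 6.86, 6.92 and 7.07 in FVB, with D6 at 7.46, 7.55 and 7.39, OVE at 8.44, 7.91 and 7.34, and OVE-D6 at 7.19, 7.48 and 7.74. Of 19 Toll-like receptor and NF-kappaB feedback genes all had negative estimates, 13 at an unadjusted p under 0.05, with a median of -0.50 and 8 called without OVE replicate 3. Icam1, an adhesion molecule for leukocytes, was at -0.69 ± 0.15, Nfkbiz, an inducible NF-kappaB cofactor gene, at -0.62 ± 0.13, and the TNF receptor genes Tnfrsf1a and Tnfrsf1b at -0.50 ± 0.12 and -0.79 ± 0.20. Interferon-induced genes had a median of -0.52 over 15 genes, yet 2 were at an unadjusted p under 0.05, Oas2 at -0.63 ± 0.19 and Ddx58 at -0.41 ± 0.14. The interferon median was -0.29 without OVE replicate 1 and -0.71 without OVE replicate 3, when 2 other members passed, Ifit1 and Oasl2.

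Over 12 T and NK cell markers the median was -0.26, with 4 at an unadjusted p under 0.05, among them the NK and cytotoxic granule gene Nkg7 at -0.92 ± 0.20 and the T cell receptor complex gene Cd3g at -1.02 ± 0.30, whose means under background in FVB, D6 and OVE-D6 allow no fold. Without OVE replicate 3 the median was -0.37 and 3 passed, Nkg7, Cd3g and Cd4. Averaged over this list, OVE was at 0.47, 0.49 and 0.04 relative to FVB. B and plasma cell markers had a median of -0.15 over 7 genes and of -0.51 without OVE replicate 3, when 2 passed. Jchain, which joins secreted IgA and IgM, was at 8.56, 8.41 and 8.44 in FVB, 7.73, 8.47 and 8.81 in D6, 10.20, 9.92 and 7.71 in OVE, and 7.51, 7.70 and 7.46 in OVE-D6. Its OVE arrays lay on both sides of FVB, with OVE replicate 3 under every FVB array. The interaction was -1.59 ± 0.69 (adjusted p = 0.475) with all arrays and -2.37 (adjusted p = 0.00188) without that one. Neutrophil and mast cell markers had a median of 0.002 over 7 genes, but 5 of them lay under the background level. Csf3r, the receptor gene for the neutrophil growth factor G-CSF, had a mean above it in every group except OVE-D6, and was at -0.74 ± 0.19 (adjusted p = 0.241) and at -0.91 (adjusted p = 0.00366) without OVE replicate 3.

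Tubular injury markers had a negative estimate in 21 of 21 genes, 10 at an unadjusted p under 0.05, with a median of -0.55, and 4 passed without OVE replicate 3. Here the arrays lay in another order. Lcn2, the lipocalin that injured tubules release, was at 6.74, 6.94 and 6.54 in FVB, 7.63, 6.71 and 7.06 in D6, 10.23, 11.51 and 9.77 in OVE, and 7.08, 7.11 and 9.23 in OVE-D6. OVE-D6 replicate 3 came near the lowest OVE array, and the other OVE-D6 arrays lay within the D6 range. Diabetes ratios were 13.6-fold with intact D6 and 1.59-fold in knockouts, with an interaction of -3.10 ± 0.75 (adjusted p = 0.225), and of -3.46 (adjusted p = 0.0364) without OVE replicate 3.

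Havcr1, the kidney injury molecule KIM-1 of the proximal tubule, was at 8.96, 10.29 and 9.90 in OVE and 7.54, 7.79 and 8.85 in OVE-D6, against 7.24 to 7.86 over the 6 non-diabetic arrays. OVE replicate 3 was not the low OVE array in Havcr1, and without it the estimate was -1.64 against -1.74 ± 0.49 with it. Vcam1, an adhesion molecule that injured tubule cells also make, was at -1.51 ± 0.34 (adjusted p = 0.205), and Cd44, a hyaluronan receptor, at -1.61 ± 0.38. Both passed without OVE replicate 3, with adjusted p of 0.00391 and 0.0119. Averaged over the list and relative to FVB, OVE was at 0.77, 1.49 and 0.84 and OVE-D6 at 0.08, 0.19 and 0.62, so that OVE replicate 2 and OVE-D6 replicate 3 were the high arrays. Without OVE replicate 2 the median of the list was -0.34. Acute-phase genes, which share Lcn2, Cp and Fgb with the injury list, had a median of -0.69 over 13 genes. Of these, 8 were at an unadjusted p under 0.05 and 4 were called without OVE replicate 3. Lcn2 and Cp were among the calls of both lists. The protease inhibitor gene Serpina3n was at 9.91, 10.65 and 8.55 in OVE and 7.45, 7.64 and 8.43 in OVE-D6, and ceruloplasmin, Cp, had an estimate of -0.94 ± 0.28. Without OVE replicate 3 their adjusted p was 0.00391 and 0.00672.

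**Figure D4:**
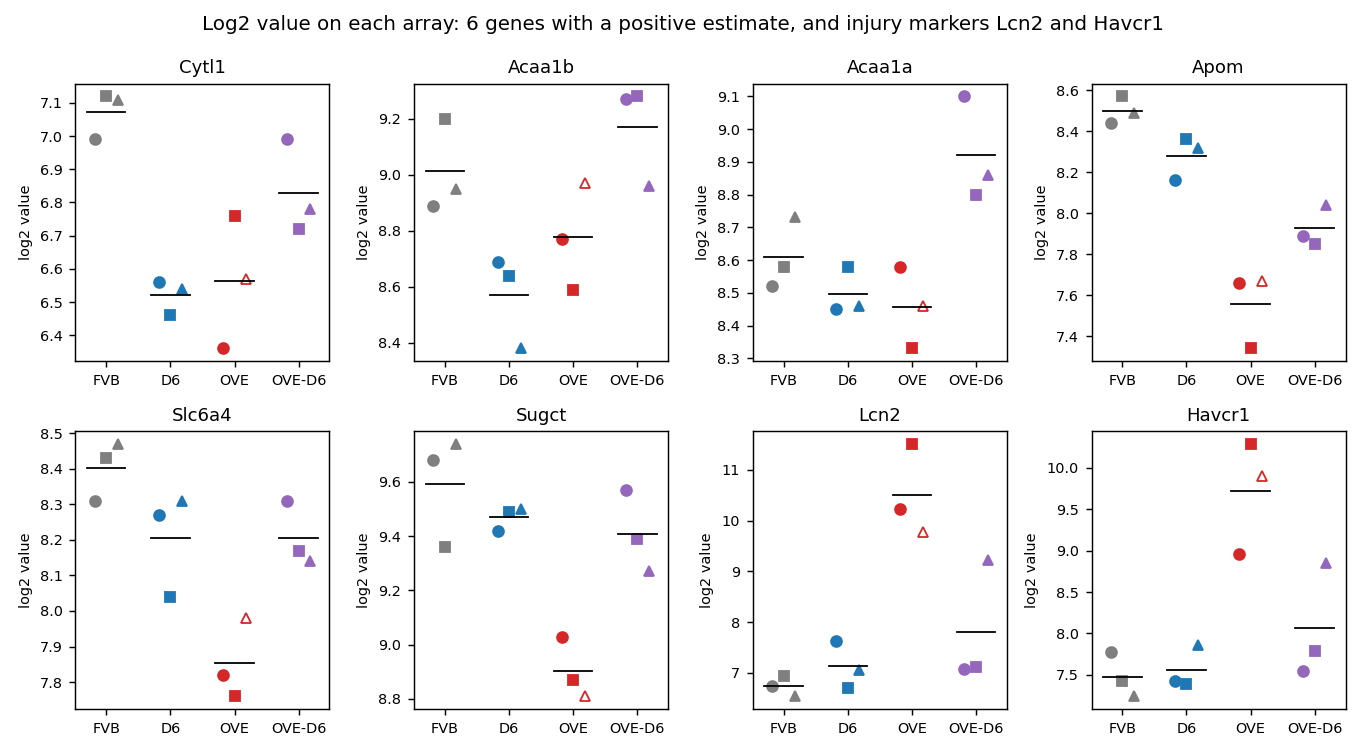
Log2 value on each array (circle, square and triangle for replicates 1, 2 and 3, open triangle for OVE replicate 3), with the group mean as a line, for 6 genes with a positive estimate and for the injury markers Lcn2 and Havcr1. In Lcn2 and Havcr1, OVE-D6 replicate 3 (9.23 and 8.85) lies well above the other OVE-D6 arrays, and in Sugct the 3 OVE arrays lie below all others.

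Matrix genes had a negative estimate in 31 of 32 cases, 19 at an unadjusted p under 0.05, and a median of -0.53. Timp1, an inhibitor of matrix metalloproteinases, was at 5.75, 5.60 and 5.78 in FVB, 5.87, 6.07 and 5.97 in D6, 7.03, 8.49 and 7.26 in OVE, and 5.98, 5.88 and 6.65 in OVE-D6. Every OVE array was above every other array. The FVB mean of 5.71 was under the background level, and the fitted interaction was -1.69 ± 0.43 (adjusted p = 0.243; 0.0587 without OVE replicate 3). The collagen-binding proteoglycan genes Dcn and Lum were both at -0.94 ± 0.28, fibronectin, Fn1, at -0.90 and the fibrillar collagen gene Col1a1 at -0.78. The exception was Col4a3, a chain of the glomerular basement membrane, at 0.25. In this list 2 genes passed without OVE replicate 3, and the median was -0.63 without OVE replicate 3 and -0.33 without OVE replicate 2. TGF-beta axis and fibroblast genes had a median of -0.32 over 20 genes, with 5 at an unadjusted p under 0.05, Tgfb2 among them at -0.61 ± 0.19, and the median was -0.18 without OVE replicate 2.

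Cell cycle genes had a median of -0.60 over 24 genes, with 18 negative and 0 positive at an unadjusted p under 0.05. Mcm2 and Mcm6 encode parts of the helicase that opens replication origins. Mcm2 was at 7.59, 7.63 and 7.82 in FVB, 8.19, 8.08 and 7.79 in D6, 8.57, 8.49 and 8.30 in OVE, and 8.14, 8.08 and 8.21 in OVE-D6, with an interaction of -0.65 ± 0.16 (adjusted p = 0.225). FVB was lowest on average and D6 overlapped OVE-D6, so part of the estimate lay in D6 against FVB. Mcm6 was at -1.20 ± 0.29. Without OVE replicate 3, 3 genes of the list passed, Mcm2 among them (-0.72, adjusted p = 0.0335). For the whole list the median difference was 0.28 for D6 against FVB and -0.34 for OVE-D6 against OVE, and D6 replicate 3 was the D6 array nearest to FVB, at 0.01 against 0.39 and 0.38. The proto-oncogene Myc, in the immediate early list, was at -0.99 ± 0.27.

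**Figure D5:**
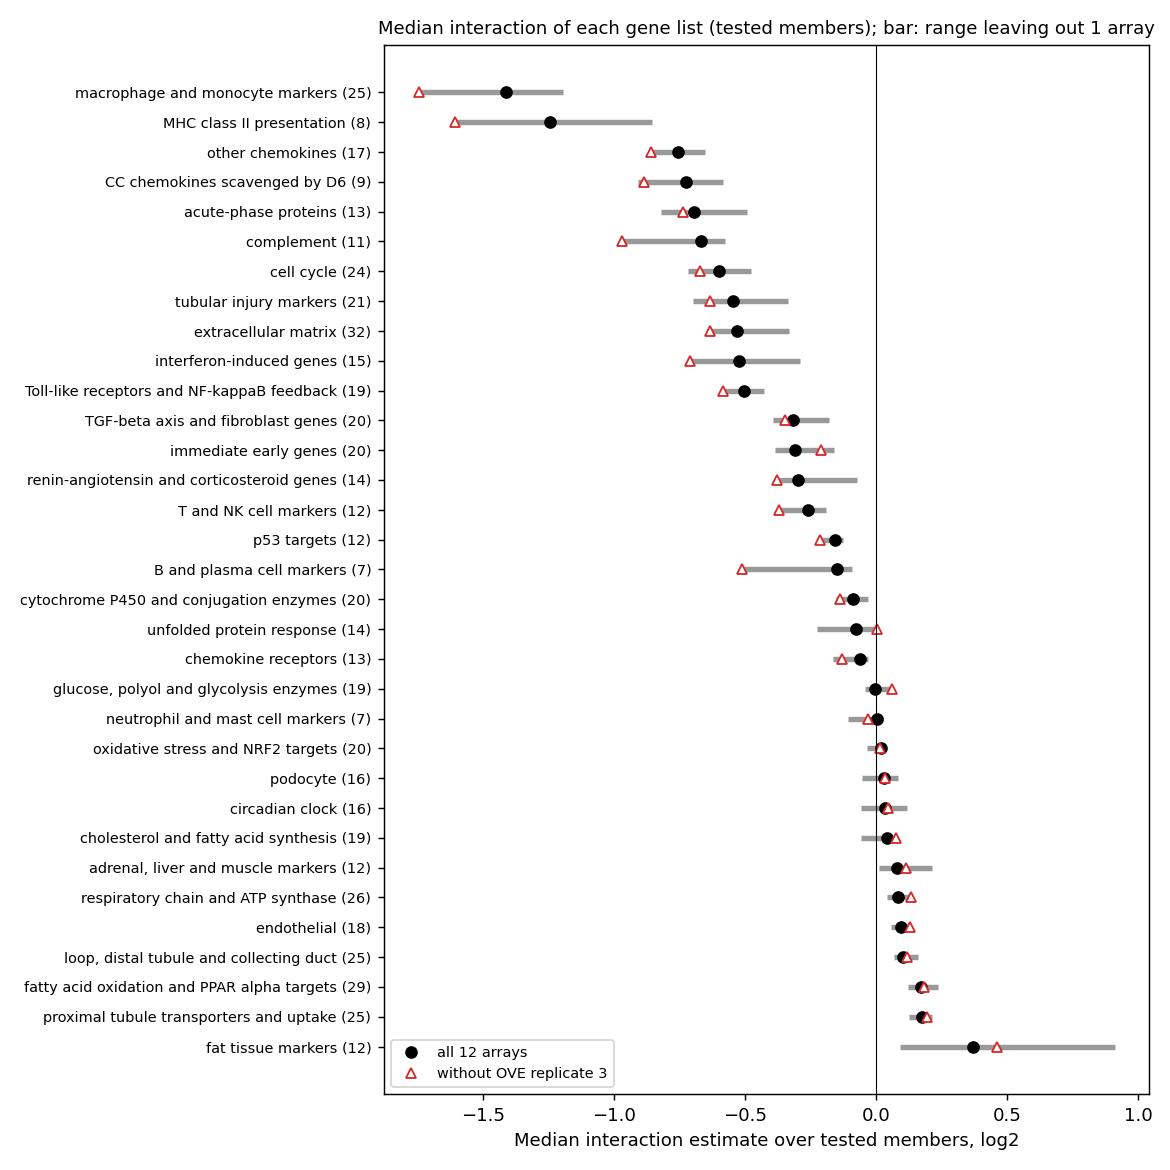
Median interaction estimate (log2) over the tested members of each of the 33 gene lists, with the number tested in brackets. Black points use all 12 arrays, grey bars span the medians with each array left out in turn, and red triangles leave out OVE replicate 3. The macrophage list is lowest at -1.41, and the proximal tubule and fatty acid oxidation lists lie at 0.17 with bars above 0.

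Renin-angiotensin and corticosteroid genes had 8 negative and 6 positive estimates, with 3 negative and 2 positive at an unadjusted p under 0.05. The median was -0.30, and -0.07 without OVE replicate 1. Serpina6, the corticosteroid-binding globulin gene, had the estimate largest in size, 1.61 ± 0.83 (adjusted p = 0.566). It was at 7.69, 6.41 and 7.12 in FVB, 8.03, 8.31 and 7.98 in D6, 10.45, 7.65 and 7.91 in OVE, and 10.72, 11.84 and 11.37 in OVE-D6. The OVE-D6 arrays were above all others, and of the OVE arrays only replicate 1 came near them. The positive members at an unadjusted p under 0.05 were Mme, which encodes the peptidase neprilysin, at 0.40 ± 0.17, and the mineralocorticoid receptor gene Nr3c2, at 0.30. Fkbp5, Per1 and Tsc22d3 are induced by glucocorticoids. Fkbp5 was at 8.02, 7.85 and 8.01 in FVB, 8.22, 8.09 and 8.39 in D6, 9.85, 9.68 and 8.70 in OVE, and 8.46, 8.53 and 8.88 in OVE-D6. OVE replicate 3 was inside the OVE-D6 range, and the interaction was -1.05 ± 0.33 (adjusted p = 0.32) with it and -1.41 (adjusted p = 0.00137) without it. Per1 was at -0.66 ± 0.25 and Tsc22d3 at -0.66 ± 0.19. The adrenal enzyme gene Cyp11b1 was at 9.93 in OVE-D6 replicate 3 and between 5.27 and 5.76 on every other array. The part of adrenal tissue in the other differences of that array was not tested.

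On the positive side the estimates were smaller. The 15 genes with the smallest p were Cytl1, Rpl10l, Hormad1, Krtap6-5, Acaa1b, Fthl17f, Duoxa2, Acaa1a, Apom, Slc6a4, Sugct, Ttc25, Fabp12, Fzd9 and Bach2os. Estimates ran from 0.40 for Fzd9 to 0.93 for Fthl17f, with adjusted p of 0.173 to 0.241, and 8 of the 15 passed without OVE replicate 3. In 13 every OVE array was below every FVB array (13.5% of all tested genes), in 13 every OVE-D6 array was above every OVE array (9.37%), and in 8 every D6 array was below every FVB array (4.2%). Of the 15, 4 had a mean under the background level of 5.93, Rpl10l, Hormad1, Duoxa2 and Fabp12, so their estimates rest on values that olfactory receptor genes also reach. Fthl17f and Krtap6-5 had OVE means of 5.88 and 5.74, under that level as well.

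Of the genes well above background, Acaa1a and Acaa1b encode the thiolases that end each round of fatty acid oxidation in peroxisomes. Acaa1b was at 8.89, 9.20 and 8.95 in FVB, 8.69, 8.64 and 8.38 in D6, 8.77, 8.59 and 8.97 in OVE, and 9.27, 9.28 and 8.96 in OVE-D6. D6 was below FVB and OVE-D6 above D6 on every array, and the interaction was 0.84 ± 0.18 (adjusted p = 0.193; 0.0195 without OVE replicate 3). Acaa1a was at 0.58 ± 0.14 (adjusted p = 0.225), with OVE-D6 at 9.10, 8.80 and 8.86 above all other arrays, which lay between 8.33 and 8.73. The pair are close paralogs, so their probe sets may share signal.

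Apom, a lipoprotein component that carries sphingosine-1-phosphate, was at 8.44, 8.57 and 8.49 in FVB, 8.16, 8.36 and 8.32 in D6, 7.66, 7.34 and 7.67 in OVE, and 7.89, 7.85 and 8.04 in OVE-D6. The groups did not overlap and were ordered FVB, D6, OVE-D6 and OVE, with a diabetes difference of -0.94 ± 0.10 with intact D6 and -0.36 in knockouts, an interaction of 0.59 ± 0.14 (adjusted p = 0.225; 0.0417 without OVE replicate 3). Sugct, a mitochondrial enzyme of glutarate metabolism, was at 9.03, 8.87 and 8.81 in OVE and between 9.27 and 9.74 on the other 9 arrays, with an interaction of 0.63 ± 0.15. Slc6a4, the serotonin transporter gene, was at 0.55 ± 0.13, with 7.82, 7.76 and 7.98 in OVE and 8.04 to 8.47 elsewhere. Cytl1, a secreted cytokine-like protein gene, had the smallest p of the positive side, at 0.82 ± 0.15, with FVB at 6.99, 7.12 and 7.11 and D6 at 6.56, 6.46 and 6.54.

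Genes of fatty acid oxidation, with targets of PPAR alpha, had a positive estimate in 26 of 29 cases, 4 of them and 0 negative ones at an unadjusted p under 0.05, with a median of 0.17. The median diabetes difference was 0.12 with intact D6 and 0.38 in knockouts, and D6 was below FVB by a median of 0.13, so both knockout groups entered the estimate. Cyp4a12a, a fatty acid omega-hydroxylase, was at 8.69, 9.76 and 8.72 in FVB, 8.92, 8.98 and 8.27 in D6, 10.70, 10.21 and 9.78 in OVE, and 11.32, 11.14 and 11.10 in OVE-D6. Both diabetic groups were above both non-diabetic groups, and OVE-D6 was above OVE. Diabetes ratios were 2.25-fold and 5.53-fold, with an interaction of 1.30 ± 0.41 (adjusted p = 0.328), and probe sets of the Cyp4a12 pair may share signal. The mitochondrial oxidation genes Acadl, Etfdh and Decr1 were at 0.38 ± 0.12, 0.31 ± 0.11 and 0.30 ± 0.11. No gene of this list passed with or without OVE replicate 3.

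Tubule transport showed small estimates. Of 25 proximal tubule genes 22 were positive, with a median of 0.17 and 0 at an unadjusted p under 0.05, and the endocytic receptor genes Cubn and Lrp2 were at 0.21 and 0.19. For loop, distal tubule and collecting duct genes the median was 0.10 over 25. At an unadjusted p under 0.05, 2 were positive and 1 negative, against 3.71% and 6.29% of all tested genes. Slc4a1, the anion exchanger of acid-secreting intercalated cells, was at 9.37, 8.85 and 9.66 in OVE and 9.59 to 9.97 elsewhere, an estimate of 0.61 ± 0.24, and Scnn1a, a sodium channel subunit, was at -0.31 ± 0.10. Podocyte genes had a median of 0.03 over 16, endothelial genes of 0.10 over 18 and respiratory chain genes of 0.08 over 26. At an unadjusted p under 0.05, 3 endothelial genes were positive and 0 negative. They were Vwf at 0.40 ± 0.13, Egfl7 at 0.36 ± 0.13 and Cldn5 at 0.41 ± 0.19. Of the podocyte genes, 1 was negative, Kirrel at -0.41 ± 0.14, and 0 were positive, and of the respiratory chain genes 0 were either. The respiratory chain median was 0.04 without OVE replicate 2, and the podocyte median -0.05 without OVE-D6 replicate 1. None of these lists had a gene past the adjusted threshold with all arrays or without OVE replicate 3.

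Unfolded protein response genes had a median of -0.08 over 14 genes, with 10 negative and 4 positive estimates. The median was -0.23 without OVE replicate 1 and 0.003 without D6 replicate 2. At an unadjusted p under 0.05, 3 were negative and 0 positive. Of these 3, Xbp1 was at 10.38, 10.70 and 10.36 in OVE-D6 and 10.74 to 11.11 elsewhere (-0.36 ± 0.15). Sdf2l1 was at 7.47, 8.40 and 7.89 in OVE-D6 and 8.12 to 9.14 elsewhere (adjusted p = 0.404). On average OVE-D6 was the low group in both. In Asns (-0.47 ± 0.21) OVE was the high group, at 8.85, 8.68 and 8.40. Cholesterol and fatty acid synthesis genes had 11 positive and 8 negative estimates and a median of 0.04, which was -0.06 without OVE replicate 2, with 2 positive and 3 negative at an unadjusted p under 0.05. The desaturase genes Scd1 and Scd2 were at -0.39 ± 0.17 and -0.58 ± 0.22, with OVE-D6 lowest in both, and Sqle, an enzyme of cholesterol synthesis, at -0.49 ± 0.22. The elongase gene Elovl6 was at 0.24 ± 0.11 and the sterol demethylase gene Cyp51 at 0.42. In the oxidative stress list the phagocyte oxidase genes Cybb and Ncf1 were at -1.53 ± 0.40 and -0.88 ± 0.29, and both passed without OVE replicate 3 (adjusted p = 0.000235 and 0.00336). The median of the list was 0.02 over 20 genes.

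The highest median of the lists belonged to fat tissue markers, 0.37 over 12 genes, and it was 0.09 without FVB replicate 2 and 0.91 without FVB replicate 1. Ucp1, the uncoupling protein of brown fat, was at 4.86, 10.09 and 8.29 in FVB, 5.34, 5.95 and 7.02 in D6, and 4.91 to 5.55 on all 6 diabetic arrays. Single non-diabetic arrays were high, and 2 of the 12 genes were at an unadjusted p under 0.05. Of the 36 tested genes among the 40 on each side of Ackr2, where C57BL/6 sequence can persist, 1 was negative and 3 were positive at an unadjusted p under 0.05. Over all tested genes these shares were 6.29% and 3.71%. The negative one was Ulk4 at -0.33 ± 0.10. The positive ones were Zkscan7 at 0.41 ± 0.14, Cck at 0.76 ± 0.34 and the probe set annotated to Mir138-1 at 0.33 ± 0.15. The median over these 36 genes and Ackr2 was 0.007. Ccr2, Cx3cr1, Acaa1a and Acaa1b lie on chromosome 9 as Ackr2 does, outside these neighbours. How far C57BL/6 sequence reaches along the chromosome was not measured. Beyond the neighbours on that chromosome, Lars2 and Slc6a20b, chosen after their values were seen, were lower in every D6 array than in every FVB array and lower in every OVE-D6 array than in every OVE array. D6 minus FVB was -0.81 ± 0.09 in Lars2 and -1.29 ± 0.09 in Slc6a20b, OVE-D6 minus OVE was -0.61 ± 0.09 and -0.96 ± 0.09, and their interactions were 0.20 ± 0.12 and 0.33 ± 0.13 (adjusted p = 0.637 and 0.41). The part of C57BL/6 sequence in differences on chromosome 9 was not tested.

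Without OVE replicate 3, further immune genes outside the lists passed, chosen here after their values were seen. The leukocyte tetraspanin gene Cd53 had the smallest p, at -2.43 (adjusted p = 3.46e-05), against -1.85 ± 0.49 (adjusted p = 0.262) with all arrays. Spi1, which encodes the myeloid transcription factor PU.1, was at -1.63 (adjusted p = 0.000639), against -1.34 ± 0.28 with all arrays, and Ighm, the IgM heavy chain, at -2.10 (adjusted p = 0.000204), against -1.55 ± 0.47. Among the positive calls was Gcsh, part of the glycine cleavage system, at 0.68 (adjusted p = 0.0297). With all arrays it was at 0.53 ± 0.18 (adjusted p = 0.37). Gcat, an enzyme of threonine and glycine metabolism, was at 0.50 (adjusted p = 0.0277), against 0.32 ± 0.18 (adjusted p = 0.605) with all arrays. In Gcat, OVE replicate 3, at 8.32, was above every FVB array. Without OVE replicate 3 the OVE group held 2 arrays, whose spread was taken to be that of the other groups.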

How the data were processed

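Kidney RNA (100 ng, integrity number above 8.8) was hybridised to Affymetrix mouse gene arrays, per the labels' protocols. Each deposited value was the log2 signal of 1 probe set on 1 array, with array medians of 6.84 to 6.93, and the values were used without further scaling. The summarisation and normalisation method is not given in the sources used here. Of 35556 probe sets, 21789 had 1 gene symbol, 1621 several and 12146 none in the platform annotation, whose symbols were updated through RefSeq tables of GRCm38.p6. The probe set with the highest mean stood for each of 1001 genes with several. Genes above the array's 25th percentile on at least 3 arrays were tested, and 3456 were left out.

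The fit was limma 3.58.1 in R 4.3.3, a model of 4 group means over all 12 arrays with eBayes and Benjamini-Hochberg adjustment at 0.05. Scripts were tested on simulated data. Named genes were Ackr2, the 15 negative and 15 positive estimates with the smallest p (predicted genes left out), the 4 smallest p of each of 33 gene lists, all scavenged CC chemokines, and genes beside Ackr2 at an unadjusted p under 0.05. Other list members are named as examples, after their values were seen. The members and lists were chosen with earlier results of these data known. Alternatives changed the filter, scaling, probe-set rule, variance model, weights and threshold, added a replicate block, or left out each array. Figures were drawn with Python 3.11.15 and matplotlib 3.10.9. The number of arrays limits the precision.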

Additional observations from a re-analysis of the deposited data

Results flagged for a closer look

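In 12 of the 30 genes with the smallest p, every OVE array lay beyond every FVB array in one direction and every OVE-D6 array beyond every D6 array in the other. The difference was tested by the interaction in limma, and none passed the adjusted threshold of 0.05 with all arrays. Higher in OVE and lower in OVE-D6 were Ccr2 (interaction -2.17, adjusted p = 0.173), Csf2rb (-1.19), Elf4 (-0.98), Mrc1 (-1.49) and Selplg (-1.22). Lower in OVE and higher in OVE-D6 were Cytl1 (0.82), Rpl10l (0.87), Fthl17f (0.93), Duoxa2 (0.63), Fabp12 (0.53), Fzd9 (0.40) and Bach2os (0.45). Rpl10l, Duoxa2 and Fabp12 had means over the arrays under the background level of 5.93, and so had Ccr2 in 3 of the 4 groups. Fthl17f had an OVE mean of 5.88, also under that level. The direction within those values is not a measured change. The genes were chosen on the interaction, so the pattern describes them. Over all tested genes, 55 (0.334%) had the first pattern and 36 (0.218%) the second.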

How the results depend on the processing

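With OVE replicate 3 left out, 377 genes passed an adjusted p of 0.05, 353 of them negative and 24 positive. Leave-one-out counts thus ran from 0 to 377 in all (0 to 353 negative, 0 to 24 positive), and the 1 gene called without D6 replicate 1 was negative. No other alternative called a gene at 0.05. The smallest adjusted p was 0.0521 with array weights (Lyz2), which left 102 genes under the looser threshold of 0.1, and between 0.103 and 0.202 under the other scalings, filters and variance models. At an unadjusted p under 0.05, counts ran from 1235 without OVE replicate 2 to 2272 without OVE replicate 3. The positive count was 365 with a filter at the 50th percentile, which tests fewer genes, and in other alternatives it stayed within 1.5 times the count with all arrays. Under the scalings, negative genes made up 62.9% to 69.3% of the genes at an unadjusted p under 0.05. Deviations from the group mean correlated at -0.25 to 0.12 between same-numbered arrays. These values gave no sign that the numbers paired the mice, but cannot exclude it. A replicate block gave 0 calls and 1608 genes at an unadjusted p under 0.05.

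Of 3362 values of the 162 named genes under 21 alternatives, 3299 kept their direction and side of the threshold and 58 passed it newly. Another 5 changed sign: Ccl11 in 4 left-out arrays (0.006 to 0.135; lowest of all arrays -0.16) and Pax5 in 1 (0.004; lowest -0.23). The cause was not tested. The alternative of another pseudocount was not run, since the values were already log2, and no neutrophil and mast cell marker was left to give a median with the filter at the 50th percentile.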
